A study of Oryza sativa with 18 samples.

Results

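The genes described here are the wall-associated kinase genes of rice, taken as every gene of the deposited expression table whose description names a wall-associated kinase or a wall-associated receptor kinase. They number 145 of 39049 genes, of which 39 lie on chromosome 4 and 106 elsewhere, 4 of these on unplaced sequence. The description alone decided which genes belong and no measured value entered that rule. The family itself was chosen with earlier results of these data known. Leaves of 3 rice genotypes were sequenced at the tillering stage: HHZ, an indica inbred and the drought-sensitive recurrent parent; P28, an indica variety adapted to drought that served as donor; and H471, a drought-tolerant line of the backcross that carries some P28 segments in the HHZ background. Each was sampled under well-watered control conditions and after 1 day and 3 days of drought, counted from a fixed soil water level, when the soil water content had reached 15% and 10%. Each genotype is 1 inbred line, so a difference between genotypes is a difference between these 3 lines, and H471 is 1 introgression line with several donor segments.

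Wall-associated kinases are receptor-like kinases that span the plasma membrane. Their outer part binds pectin of the cell wall and usually carries repeats like those of epidermal growth factor, and their inner part is a serine/threonine kinase, so that they link the wall to signalling inside the cell. In Arabidopsis, WAK1 binds pectin fragments (oligogalacturonides), WAK2 is needed for normal cell expansion and acts on vacuolar invertase, and RFO1 (WAKL22) gives resistance to Fusarium wilt. Grass genomes hold many more copies than Arabidopsis, often side by side. The symbols given below are those of the closest Arabidopsis gene in the file, so many rice genes share one symbol and a symbol does not carry its Arabidopsis role over to rice.

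The table holds 1 FPKM value (fragments mapped to a gene, scaled to the length of its transcript and to all mapped fragments) for each gene in each of 9 columns, 1 for each genotype and condition. Each column pools 2 libraries, so the spread between them cannot be read. A difference between 2 columns therefore has no test and was counted by a size rule, a difference of at least 1 in log2(FPKM + 1). Drought responses common to the 3 genotypes and genotype differences common to the 3 conditions were tested with limma over the 20568 genes that reached an FPKM of 1 in some column. There the other genotypes or conditions stand in for replicates, and the p-values measure the spread between them and not between plants. Of 18 leaf genes for chlorophyll-binding proteins and the small subunit of rubisco, 17 were at an FPKM of at least 1 in every column. Their share of the summed FPKM lay between 0.965% and 2.11% in the control and 3-day columns and between 4.47% and 5.16% in the 1-day columns; its part in the results below was not tested. In whole leaves, fewer cells of a type and less RNA per cell cannot be told apart.

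Much of the family was at low levels. Of the 145 genes, 38 were listed at 0 in every column (26.2%, against 29.4% of all genes), 41 stayed above 0 but under an FPKM of 1, 39 peaked between 1 and 10, 23 between 10 and 100, and 4 at 100 or more. The filter for testing passed 66 genes, 24 of the 39 on chromosome 4 and 42 of the 106 elsewhere. The 38 genes at 0 and the 41 genes under 1 entered no limma test. On chromosome 10, only 2 of 21 genes passed the filter, and on chromosome 5 neither of 2. By best match the family held 49 genes like WAK2, 29 like WAK3, 28 like WAK5, 8 like WAK4, 8 like WAKL2 and 7 like WAK1, and 18, 13, 18, 4, 2 and 2 of these passed.

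The genes lay in runs along the chromosomes. With at most 5 other genes allowed between neighbours, 120 of the 141 genes on numbered chromosomes fell into 33 runs of 2 or more and 21 stood alone. The longest run, of 15 genes, reached from LOC_Os04g29580 to LOC_Os04g30160 on chromosome 4, and a run of 9 genes followed it from LOC_Os04g30240 to LOC_Os04g30370. The authors list multi-read correction for their program but also state that later steps used uniquely matching reads. Whether reads that fit several copies were divided between them or dropped is therefore not clear. The values of neighbouring copies are less certain than those of single genes.

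**Figure D1:**
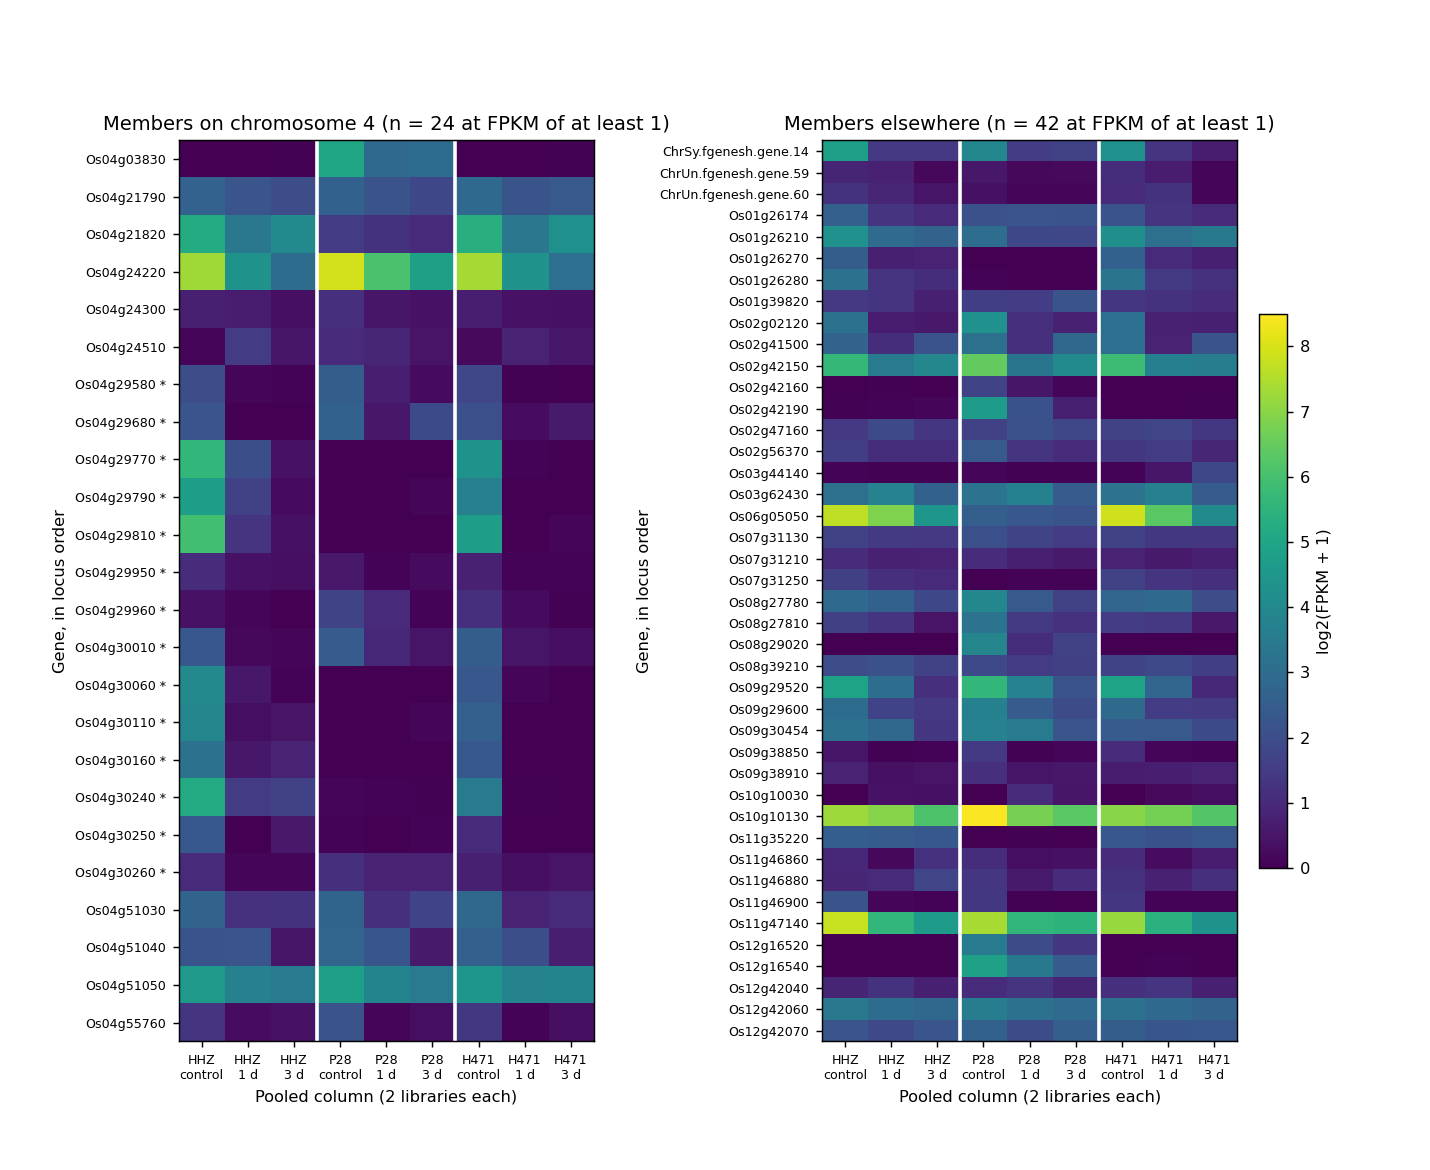
Heat maps of log2(FPKM + 1) for the wall-associated kinase genes that reached an FPKM of 1, with genes in locus order as rows and the 9 pooled columns as columns; an asterisk marks genes inside the chromosome 4 segment of H471. The 24 genes of chromosome 4 are on the left and the 42 others on the right, and the brightest cell is LOC_Os10g10130 in the P28 control, at an FPKM of 352.

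A few genes carried most of the family's RNA. LOC_Os10g10130, like WAK5, had an FPKM of 151 in the HHZ control and 123 and 69.6 after 1 and 3 days, 352, 106 and 78.3 in the same order in P28, and 126, 105 and 73.3 in H471. LOC_Os11g47140, like WAK2, stood at 220.0, 47.7 and 24.1 in HHZ, 165, 47.4 and 43.8 in P28, and 144, 41.5 and 19.1 in H471. LOC_Os04g24220, like WAK5, stood at 156, 19.3 and 6.96 in HHZ, 241, 66.0 and 27.6 in P28, and 162, 19.6 and 7.58 in H471. In the last 2 genes all 3 control columns lay above all 6 drought columns, and in LOC_Os10g10130 the HHZ and H471 values after 1 day came close to their controls. LOC_Os06g05050, like WAK5, was abundant in the HHZ and H471 controls, at 206 and 237, and at 4.95 in the P28 control. The 5 most abundant genes of a column made up between 61.2% and 72.4% of the summed FPKM of the family.

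The first question of the design is how the leaf transcriptome changes under drought, and the summed level of the family was lower in every drought column than in every control column. The summed FPKM of the 145 genes went from 1268 in the HHZ control to 441 after 1 day and 230.1 after 3 days, from 1233 to 371 and 270.0 in P28, and from 1069 to 369 and 227 in H471. The sums after 3 days were thus 18.1%, 21.9% and 21.3% of the control in HHZ, P28 and H471. These are descriptions of pooled columns, with no test. Of the 66 genes that passed the filter, 56 had their highest value in a control column (84.8%, against 35.9% of all genes that passed), 31 of them in the P28 control, 16 in the HHZ control and 9 in the H471 control. The filter fixed part of this. Of the 66 genes, 16 (24.2%, against 4.85% of all genes that passed) reached an FPKM of 1 in control columns alone, so their highest value had to be in a control.

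**Figure D2:**
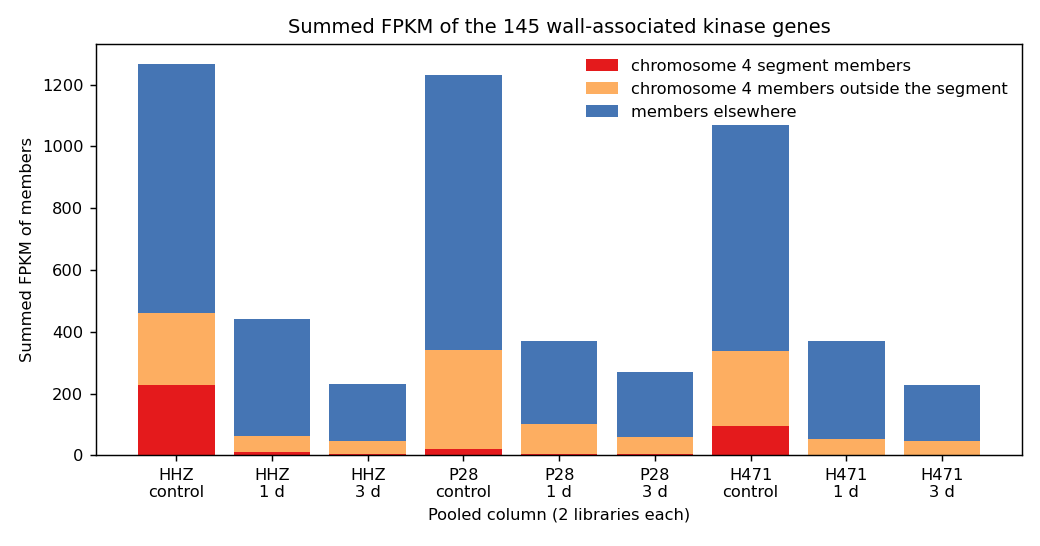
Stacked bars of the summed FPKM of the 145 genes in each pooled column, split into genes inside the chromosome 4 segment, other genes of chromosome 4 and genes elsewhere. The 3 control bars reach 1069 to 1268 and the 6 drought bars 227 to 441, and the segment's part is 226 in the HHZ control, 94.7 in the H471 control and 19.2 in the P28 control.

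Gene by gene, limma called 33 of the 66 genes lower after 1 day of drought and 2 higher, where 30.8% and 27.4% of all genes tested were called lower and higher. After 3 days it called 45 lower and none higher, against a background of 30.1% lower and 27.0% higher, and in that contrast 45 of the 66 genes had an unadjusted p under 0.05. The median log2 difference of the 66 genes was -0.74 after 1 day and -0.93 after 3 days, beside medians of -0.02 and -0.03 over all genes tested. Both contrasts share the control columns. The filter weighs on these counts: 16 of the 66 genes (24.2%), against 4.85% of all genes tested, passed it through control columns alone. Such a gene had to be lower in drought in at least 1 genotype. The 1-day count fell to 22 genes without the HHZ 1-day column, and the 3-day count to 28, 27, 29 and 26 genes without the HHZ control, HHZ 3-day, H471 control and H471 3-day columns. By best match, 11 of 18 genes like WAK2, 9 of 18 like WAK5 and 5 of 13 like WAK3 were called lower after 1 day, and 14, 14 and 8 after 3 days. Of the called genes, 22 after 1 day and 25 after 3 days were called in every one of the 9 fits that leave out a column.

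By the size rule, 27 of the 66 genes were lower and 1 higher in HHZ after 1 day, where 13.1% and 12.5% of all genes tested were past the rule in these directions. After 3 days 32 were lower and none higher in HHZ, against 13.3% and 10.3%. In P28, 26 genes were lower and 1 higher after 1 day, against 14.9% and 12.2%, and 28 were lower and none higher after 3 days, against 13.5% and 9.09%. In H471, 27 genes were lower and none higher after 1 day, against 13.4% and 13.2%, and 29 were lower and 1 higher after 3 days, against 13.6% and 10.9%. In all 3 genotypes alike, 15 genes (22.7%) were past the rule downwards after 1 day and 12 (18.2%) after 3 days, beside 8.88% and 8.33% of all genes tested.

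Among the genes expressed in all 3 genotypes, those with the largest falls lay outside the chromosome 4 segment described below. LOC_Os04g24220, whose values stand above, differed by -2.59 (SE 0.25, adjusted p = 0.000131) after 1 day and by -3.88 (SE 0.25, adjusted p = 2.91e-05) after 3 days on the log2(FPKM + 1) scale. LOC_Os09g29520, like WAK3, had an FPKM of 29.5, 7.42 and 1.24 in HHZ, 48.5, 12.7 and 3.49 in P28, and 29.5, 5.76 and 0.981 in H471. The steps of this gene were much alike in the 3 genotypes, with a log2 difference of -3.73 (SE 0.11, adjusted p = 2.74e-06) after 3 days. ChrSy.fgenesh.gene.14, a gene of unplaced sequence like WAK3, went from 26.8 to 1.64 and 1.69 in HHZ, from 14.2 to 1.92 and 2.18 in P28, and from 18.4 to 1.43 and 0.574 in H471. LOC_Os02g02120, like WAK5, went from 8.03 to 0.602 and 0.484 in HHZ, from 18.7 to 1.20 and 0.708 in P28, and from 7.54 to 0.732 and 0.673 in H471. In both of these genes the lowest control column lay far above the highest drought column, and nearly the whole difference was present after 1 day.

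Other abundant genes fell less steeply or on a slower course. LOC_Os02g42150, like WAK5, stood at 49.6, 10.2 and 14.1 in HHZ, 85.9, 8.88 and 15.2 in P28, and 55.5, 11.8 and 11.2 in H471, a log2 difference of -2.49 (SE 0.21, adjusted p = 6.7e-05) after 1 day and -2.12 (SE 0.21, adjusted p = 0.000166) after 3 days. LOC_Os04g51050, like RFO1, stood at 23.4, 12.0 and 10.7 in HHZ, 26.6, 13.4 and 10.6 in P28, and 21.3, 12.8 and 13.2 in H471. It was lower by -0.85 (SE 0.12, adjusted p = 0.00073) after 1 day and -0.99 (SE 0.12, adjusted p = 0.000408) after 3 days, when the difference from control was -1.06 in HHZ, -1.25 in P28 and -0.65 in H471. LOC_Os10g10130 passed the test after 3 days, at -1.35 (SE 0.29, adjusted p = 0.00641), but not after 1 day, at -0.76 (SE 0.29, adjusted p = 0.0565). LOC_Os08g27780, like WAK5, stood at 6.52, 5.24 and 2.62 in HHZ, 14.1, 4.16 and 2.23 in P28, and 5.87, 6.50 and 3.05 in H471, so that its 1-day column was lower than control in HHZ and P28 and not in H471. LOC_Os12g42060, like WAK3, had the smallest called difference after 3 days among the 27 genes that reached an FPKM of 10, from 9.52, 10.8 and 8.28 in the controls of HHZ, P28 and H471 to 6.17, 6.86 and 5.59 after 3 days.

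Rises were few and small. LOC_Os03g62430, described as a putative wall-associated kinase with no symbol, went from 7.79 to 12.5 and then 5.16 in HHZ, from 8.45 to 12.3 and 4.60 in P28, and from 8.46 to 12.1 and 4.62 in H471. It was thus highest after 1 day and lowest after 3 days in every genotype, with log2 differences from control of 0.52 (SE 0.09, adjusted p = 0.002) and -0.67 (SE 0.09, adjusted p = 0.000693). LOC_Os02g47160, like WAKL1, had an FPKM of 1.63, 2.66 and 1.56 in HHZ, 2.19, 3.35 and 2.49 in P28, and 2.09, 2.45 and 1.61 in H471. Its rise of 0.36 (SE 0.13, adjusted p = 0.0456) after 1 day was lost in 8 of the 9 fits that leave out a column.

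A rise past the size rule was reached in 1 genotype each by 3 genes that were named after their values had been seen. LOC_Os03g44140, like WAK2, was under 0.13 in every column of HHZ and P28 and went from 0.0505 in the H471 control to 0.427 after 1 day and 2.58 after 3 days. LOC_Os04g24510 went from 0.120 to 1.80 in HHZ after 1 day, from 0.153 to 0.80 in H471 and from 1.03 to 0.889 in P28. LOC_Os10g10030, like WAK4, went from 0.0206 to 1.13 in P28 after 1 day and from listed at 0 to 0.325 in HHZ and 0.155 in H471. Over the 3 genotypes the 1-day difference was 0.62 (adjusted p = 0.0933) for LOC_Os04g24510 and 0.56 (adjusted p = 0.0503) for LOC_Os10g10030 in limma, and the latter passed the threshold in 5 of the alternative fits, with an adjusted p from 0.00905 when 0.1 was added in place of 1 to 0.0488 with median-ratio scaling. The single-genotype differences rest on 1 pooled column each and have no test.

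The chromosome 4 genes were set against the rest. After 1 day, limma called 18 of 24 chromosome 4 genes lower and none higher, beside 15 lower and 2 higher of 42 genes elsewhere, and the medians were -1.55 and -0.50. The shares called lower were 75.0% and 35.7%, beside 30.8% of all genes tested. After 3 days it called 21 of 24 lower on chromosome 4 and 24 of 42 elsewhere, or 87.5% and 57.1% beside 30.1% of all genes tested, with medians of -1.46 and -0.73. The difference between the groups was not tested, and the filter bears on them unequally: 10 of the 24 passed through control columns alone, against 6 of the 42. Without the 8 segment genes that the study lists, described below, 11 of 16 chromosome 4 genes were called lower after 1 day and 14 of 16 after 3 days, and the medians were -0.77 and -1.02.

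**Figure D3:**
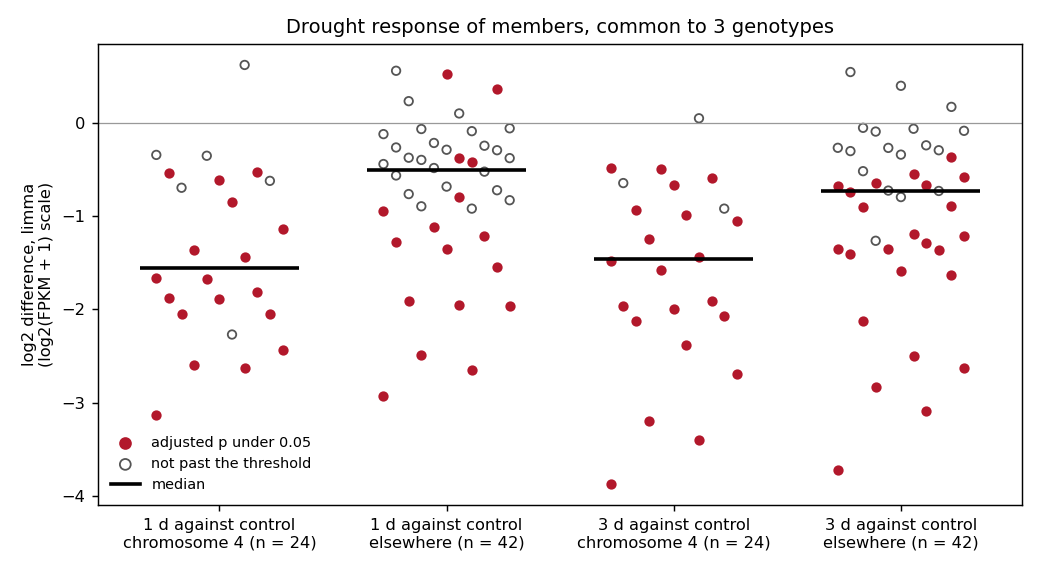
Log2 differences from control common to the 3 genotypes (limma, log2(FPKM + 1) scale) after 1 day and 3 days, for the 24 genes of chromosome 4 and the 42 genes elsewhere; filled points have an adjusted p under 0.05, open points do not, and bars are medians. The medians lie at -1.55 and -0.50 after 1 day and at -1.46 and -0.73 after 3 days.

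The split by chromosome differed between the genotypes. By the size rule, 15 of 24 chromosome 4 genes and 12 of 42 elsewhere were lower in HHZ after 1 day. In H471 the counts were likewise 15 and 12, and in P28 they were 7 and 19. Of all genes tested, 13.1%, 13.4% and 14.9% were lower in HHZ, H471 and P28. In the segment described below, 11, 11 and 3 genes were lower in the same order, and 4 other chromosome 4 genes in each genotype. The segment's 8 genes listed by the study did not exceed 0.121 in P28. They therefore could not pass the rule downwards there. The summed FPKM of the chromosome 4 genes after 1 day was 13.8% of the control in HHZ, 15.5% in H471 and 29.9% in P28. For the chromosome 4 genes outside the segment it was 22.5% in HHZ, 20.8% in H471 and 30.2% in P28. For the genes elsewhere the same share was 46.7% in HHZ, 43.3% in H471 and 30.2% in P28. After 3 days the shares elsewhere were 22.9%, 24.6% and 23.8% in HHZ, H471 and P28, so the genotypes lay closer together than after 1 day. The 2 genes with the most RNA there after 1 day in HHZ and H471 were LOC_Os10g10130, whose values stand above, and LOC_Os06g05050, which stood at 115 in HHZ and 78.8 in H471 after 1 day and at 20.9 and 15.4 after 3 days.

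Between 1 day and 3 days of drought, limma called 8 genes lower and 1 higher, where 24.4% and 25.3% of all genes tested were called in these directions. The share of the family called lower, 12.1%, was thus below that of all genes tested. The falls were led by LOC_Os09g29520, at -1.76 (SE 0.11, adjusted p = 3.01e-05), and by LOC_Os04g51040, like WAK3. The latter stood at 3.64, 3.69 and 0.409 in HHZ, 5.85, 3.81 and 0.543 in P28, and 5.03, 3.07 and 0.645 in H471, so that most of its fall came after the first day. LOC_Os02g41500, like WAK2, was the 1 gene that rose again, with an FPKM of 5.60, 1.17 and 3.51 in HHZ, 7.73, 1.26 and 6.33 in P28, and 7.68, 0.764 and 3.58 in H471. Its 3-day columns lay above the 1-day columns in all 3 genotypes, by 1.38 (SE 0.18, adjusted p = 0.0007), and below the controls. The count of 9 genes rose to 14 without the P28 control column.

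The second question is how the parents differ. Across the 3 conditions limma called 6 of the 66 genes with more RNA in P28 than in HHZ and 6 with less, where 3.64% and 3.0% of all genes tested were called. The count of 12 fell to 7 without the HHZ control, the HHZ 3-day or the P28 1-day column and to 6 without the HHZ 1-day column, and 5 of the 12 genes, LOC_Os04g03830, LOC_Os04g21820, LOC_Os07g31250, LOC_Os11g35220 and LOC_Os12g16540, were called in all 9 fits that leave out a column. In the controls alone, 11 genes were past the size rule upwards and 15 downwards in P28, against 4.17% and 3.09% of all genes tested. Of the 15, 8 lay in the chromosome 4 segment described below, and outside it 10 genes were higher and 7 lower. After 1 day the counts were 6 and 10, against 3.33% and 3.43%, and after 3 days 9 and 5, against 3.34% and 2.9%.

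Several genes had RNA in P28 and next to none in HHZ. LOC_Os04g03830, like WAK5, was at 31.7, 6.52 and 7.06 in P28 and at 0.0294 or less in every column of HHZ and 0.0299 or less in H471, a log2 difference between the parents of 3.63 (SE 0.45, adjusted p = 0.00468). The neighbours LOC_Os12g16520, like WAK2, and LOC_Os12g16540, like WAK3, were listed at 0 in all HHZ columns. In P28 they stood at 10.5, 2.88 and 1.54 and at 28.2, 9.89 and 4.58. LOC_Os08g29020, like WAK2, was also listed at 0 in HHZ and stood at 13.7, 1.15 and 2.23 in P28, and LOC_Os02g42190, like WAK4, stood at 24.1, 3.44 and 0.675 in P28 and at most at 0.0980 in HHZ. These 2 genes did not pass the test, with adjusted p = 0.0626 and 0.115, and in all 5 the P28 control column was above both P28 drought columns. A smaller excess in P28 was called at LOC_Os09g29600, like WAK2, which stood at 7.01, 2.24 and 1.65 in HHZ, 12.4, 4.54 and 2.84 in P28, and 6.74, 1.79 and 1.72 in H471, a difference between the parents of 0.68 (SE 0.12, adjusted p = 0.0208).

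Other genes had RNA in HHZ and little in P28. LOC_Os06g05050 stood at 206, 115 and 20.9 in HHZ and at 4.95, 3.93 and 3.48 in P28, a log2 difference of -3.99 (SE 0.60, adjusted p = 0.0102), and against control the HHZ columns differed by -0.84 after 1 day and -3.24 after 3 days and the P28 columns by -0.27 and -0.41. LOC_Os04g21820, like WAK5, stood at 36.7, 9.66 and 15.4 in HHZ and at 1.85, 1.37 and 1.03 in P28, a difference of -2.97 (SE 0.31, adjusted p = 0.00213). LOC_Os11g35220, like WAKL2, was nearly level with drought in HHZ, at 4.84, 4.54 and 4.11, and at 0.0327 or less in P28, a difference of -2.44 (SE 0.12, adjusted p = 5.73e-05). LOC_Os01g26280, like WAK5, stood at 7.95, 1.40 and 1.14 in HHZ and at 0.0664 or less in P28, at -1.81 (SE 0.41, adjusted p = 0.0472), a call that was lost in 8 of the 9 fits that leave out a column. LOC_Os01g26210, like WAK3, stood at 18.7, 6.85 and 5.60 in HHZ and at 7.17, 2.56 and 2.47 in P28, at -1.11 (SE 0.15, adjusted p = 0.00579). LOC_Os07g31250, like WAKL10, was low in both, at 2.09, 1.28 and 1.07 in HHZ and at 0.0646 or less in P28. Reads of all 3 genotypes were aligned to 1 reference genome, so a gene without RNA and a gene whose reads do not align cannot be told apart where a genotype is at or near 0.

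**Figure D4:**
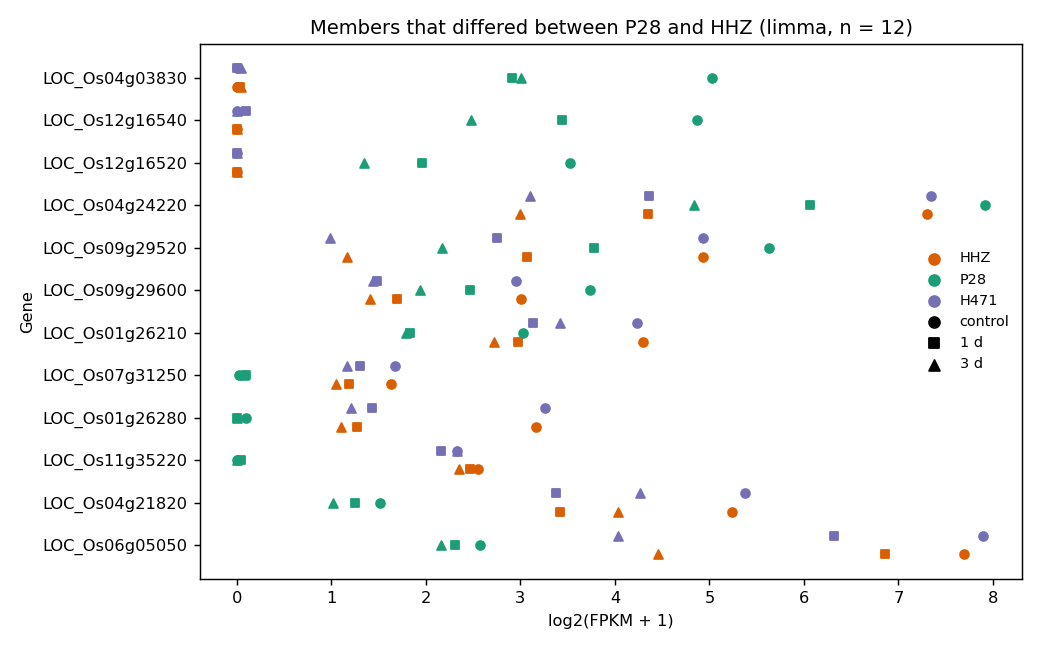
Log2(FPKM + 1) of the 12 genes that limma called different between P28 and HHZ, 1 gene per row, with colour for the genotype and symbol for the condition (circle control, square 1 day, triangle 3 days). H471 lies beside HHZ in all 12 rows, at LOC_Os06g05050 for example at 237 against 206 in the controls.

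The third question is what the introgression line shares with each parent. Of the 26 genes past the size rule between the parents in control, 24 were nearer to HHZ in H471 and 2 nearer to P28. Outside the chromosome 4 segment H471 was nearer to HHZ at all 17 such genes in control, 12 of 12 after 1 day and 12 of 12 after 3 days. At LOC_Os04g21820, for example, H471 stood at 40.4, 9.36 and 18.3, and at LOC_Os11g35220 at 4.01, 3.46 and 4.02. Only the chromosome 4 and chromosome 9 segments described below were placed here, so genes in other donor segments of H471 were not marked. The share of all genes nearer to HHZ in H471 was not taken. Between H471 and P28, limma called 6 genes higher and 6 lower in H471, where 3.01% and 3.71% of all genes tested were called. They were the same 12 genes as between the parents, and both comparisons use the P28 columns. limma called none of the 66 genes between H471 and HHZ, where 0.18% of all genes were called higher and 0.0438% lower. None of the 66 had an unadjusted p under 0.05. The fit takes a genotype difference as equal in all conditions, so 1 that shrinks under drought widens the SE. In this contrast the SE was 0.40 to 1.04 over the 8 segment genes listed by the study. Between P28 and HHZ, limma likewise called none of the 14 tested segment genes. Without the P28 control column, 1 gene was called lower in H471, LOC_Os04g30240.

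In single conditions H471 differed from HHZ by the size rule at few genes, nearly all in 1 place. In control 7 genes were lower and none higher, against 1.15% and 1.31% of all genes. After 1 day 4 were lower and none higher, against 1.62% and 1.79%, and after 3 days 1 was lower and 1 higher, against 1.47% and 1.93%. All the lower genes lay in the chromosome 4 segment, and the higher one was LOC_Os03g44140.

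The segment, from LOC_Os04g29550 to LOC_Os04g31804, is a stretch of P28 chromosome in H471 as the study places it, and holds 151 genes of the table, 24 of them wall-associated kinase genes, of which 14 passed the filter. The study lists 8 of these as changed in H471. Since it chose them on these samples, their direction is not independent evidence, and the values serve to describe them. In control all 8 had more RNA in HHZ than in H471, and more in H471 than in P28. LOC_Os04g29810, which has no symbol, stood at 60.5 in the HHZ control and 25.7 in the H471 control and was listed at 0 in the P28 control. LOC_Os04g29770, like WAK3, stood at 48.6, 19.3 and 0 in the same order. LOC_Os04g30240, like WAK2 and named OsWAK60 by the study, stood at 36.0, 10.3 and 0.121, and LOC_Os04g29790, like WAK4 and named OsWAK40, at 26.3, 12.0 and 0.

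The other 4 genes had the same order at lower levels. LOC_Os04g30060, like WAKL10, stood at 14.9 in HHZ, 3.92 in H471 and 0 in P28, LOC_Os04g30110, like WAK2, at 13.7, 5.02 and 0, LOC_Os04g30160, like WAK2 and named OsWAK46, at 8.25, 4.06 and 0, and LOC_Os04g30250, which has no symbol, at 4.03, 1.02 and 0.0542. The H471 control was between 0.253 and 0.492 times the HHZ control over the 8 genes, with a median of 0.383. The H471 control thus lay between the parents at each of them. The files do not show whether the H471 control and drought plants carried the same alleles in the segment, so a response to drought and a difference between plants cannot be told apart there in H471.

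Under drought the H471 columns lay with those of P28. After 1 day the 8 genes were at 0.0755 or less in H471 and in 4 of them above 1 in HHZ, at 3.08 in LOC_Os04g29770, 2.17 in LOC_Os04g29790, 1.76 in LOC_Os04g30240 and 1.45 in LOC_Os04g29810. After 3 days they were at 0.0726 or less in H471 and at 0.0608 to 2.18 in HHZ, where LOC_Os04g30240 was the highest. Over the 16 drought values of these genes, 11 were listed at 0 in H471, 11 in P28 and 1 in HHZ. P28 did not exceed 0.121 in any of its 24 values. limma called 7 of the 8 lower after 1 day and 7 lower after 3 days, where 30.8% and 30.1% of all genes tested were called lower. All of these calls were lost in at least 1 fit that leaves out a column. Of the 8 genes, 4 passed the filter through control columns alone, and all 8 were highest in the HHZ control. The fit takes the P28 columns, which are at or near 0 throughout, as 1 of its 3 genotypes.

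**Figure D5:**
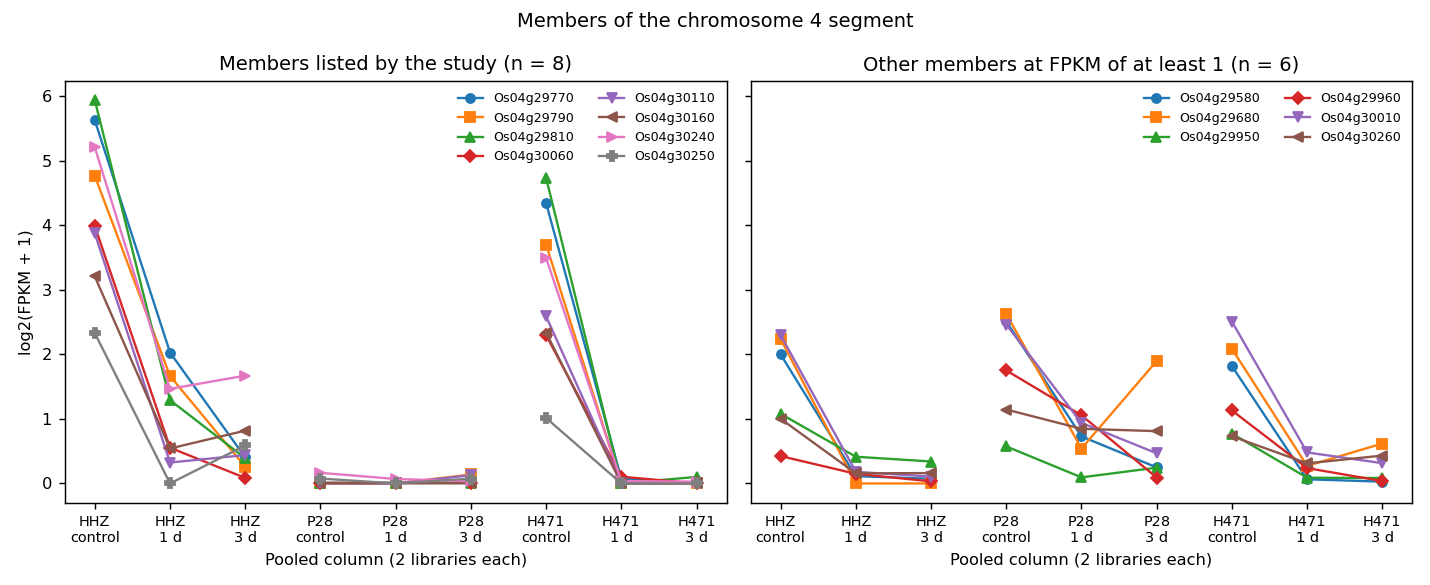
Log2(FPKM + 1) in the 9 pooled columns for the segment's 8 wall-associated kinase genes that the study lists (left) and for the 6 others that reached an FPKM of 1 (right), 1 line per gene and genotype. On the left the HHZ control lies at an FPKM of 4.03 to 60.5, the H471 control at 1.02 to 25.7 and P28 at 0.121 or less, while on the right P28 reaches 5.18.

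The other 16 wall-associated kinase genes of the segment lie before, among and after those 8. Those named here fall outside the rule for named genes and were chosen after their values were seen. LOC_Os04g29680, like WAK2, stood at 3.73 in the HHZ control, 5.18 in P28 and 3.25 in H471, LOC_Os04g30010, like WAK2, at 3.93, 4.52 and 4.69, and LOC_Os04g29580, like WAK2, at 3.00, 4.71 and 2.53. All 3 were called lower after 1 day and after 3 days, for LOC_Os04g30010 by -1.89 (SE 0.16, adjusted p = 6.9e-05) and -2.13 (SE 0.16, adjusted p = 5.27e-05). LOC_Os04g29960, like WAK2, was lower in the HHZ control, at 0.342, than in P28, at 2.37, or H471, at 1.19. A pair of low genes had the order of the 8. LOC_Os04g29950, like WAK1, stood at 1.11 in the HHZ control, 0.709 in H471 and 0.489 in P28, and in drought at 0.333 and 0.266 in HHZ and at 0.0633 and 0.0605 in H471. LOC_Os04g30330, which was under the filter, stood at 0.383, 0.138 and 0 in the controls of HHZ, H471 and P28, and in drought at 0.280 and 0.163 in HHZ and at 0 in H471 and P28. None of these other genes was past the size rule between H471 and HHZ in any condition, and in control the 5 that reached an FPKM of 1 in HHZ stood in H471 at 0.637 to 1.20 times HHZ. Of the 52 tested segment genes outside the family, 2 were lower in the H471 control by the size rule and 4 higher. The 2 lower ones code for cysteine-rich receptor-like kinases: LOC_Os04g30030, like CRK12, was at 76.5 in the HHZ control, 28.7 in H471 and 7.53 in P28, and LOC_Os04g30040, like CRK39, at 44.1, 9.17 and 4.82.

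Only 1 gene of the family, LOC_Os09g30454, lies in the chromosome 9 segment that the study describes, where it is named OsWAK87 and matches WAK3. It stood at 8.07, 6.36 and 1.55 in HHZ, 12.6, 10.0 and 3.78 in P28, and 4.38, 4.22 and 2.73 in H471. H471 was the lowest genotype in control and after 1 day and lay between the parents after 3 days, without passing the size rule against HHZ. Its fall after 3 days of -1.29 (SE 0.24, adjusted p = 0.00338) was common to the genotypes.

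Genes tied to these kinases at the wall were called in both directions. Their counts are read against all genes tested, of which 30.8% were called lower and 27.4% higher after 1 day and 30.1% and 27.0% after 3 days. Pectin-modifying enzymes shape the ligand of these kinases. Of 56 tested genes whose description names such an enzyme, 13 were called lower and 9 higher after 1 day. After 3 days 13 were lower and 15 higher. Of 11 genes for glycine-rich proteins, a family with a known partner of WAK1 in Arabidopsis, 3 were lower and 4 higher after 1 day, and 6 lower and 2 higher after 3 days. Of 25 genes whose description names an invertase or fructosidase, 6 were lower and 9 higher after 1 day, and 6 lower and 6 higher after 3 days. The pectin and invertase lists rest on words in the description, which can also name an inhibitor of the enzyme. A gene can be in both lists. The share of the pectin list called lower, 23.2% at both times, was below that of all genes, and so was that of the invertase list. Other receptor-like kinases were counted in the same way. Of 8 malectin-type kinases, which also face the wall, 5 were lower and 1 higher after 1 day, and 4 lower and 1 higher after 3 days. Of 47 cysteine-rich receptor-like kinases, 29 were lower and 5 higher after 1 day, and 28 lower and 8 higher after 3 days, with medians of -1.32 and -1.04. Of 164 leucine-rich repeat kinases, 72 were lower and 18 higher after 1 day, and 73 lower and 19 higher after 3 days, with a median of -0.43 at both times. Between day 1 and day 3, 17 of the 47 cysteine-rich kinases (36.2%) were called higher and 1 (2.13%) lower, where 25.3% and 24.4% of all genes tested were called. Of the 66 wall-associated kinase genes, 1 (1.52%) was higher and 8 (12.1%) lower. These differences between lists were not tested.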

How the data were processed

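Values were the FPKM that the authors deposited, 1 per gene for each of 9 columns, with the 2 libraries of a group pooled. Per the authors, paired reads were trimmed in house, aligned to the MSU rice genome with TopHat and run through Cufflinks with bias and multi-read correction. They also state that later steps used uniquely matching reads. The versions of these programs are not given in the sources used. The authors report the mapped reads of each library, but the columns do not hold the reads of each gene, so no counting error is given. Columns were matched to groups by the code in their headers, which the sample descriptions also give, and 0 were left unmapped. A gene was kept if some column reached an FPKM of 1, and 1 was added before log2. limma 3.58.1 (R 4.3.3, with a trend) was fitted on genotype and condition with 4 residual degrees of freedom, at a Benjamini-Hochberg adjusted p under 0.05 over the 20568 kept genes. The code was also run on simulated data without genotype effects, which cannot check calls at genes where the genotypes respond differently. Single columns were compared by a log2 difference of at least 1. Median-ratio factors of the columns lay between -0.02 and 0.03 (log2), and values were left as deposited.

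Genes named were those that reached an FPKM of 10 in any column, those the study lists in its chromosome 4 and 9 segments, the 5 called with the largest difference in each direction of each limma contrast, and those at 0 in every column of 1 genotype and at 1 or more in every column of another; others are said to be outside the rule or to have been chosen after their values were seen. A gene lies in a segment if its locus number falls between the first and last gene the study lists there. This was done for the chromosome 4 and chromosome 9 segments described above and not for the other donor segments of H471. The family and the lists were chosen with earlier results of these data known. Alternatives were an added value of 0.1, other filters, scaling, no trend, leaving out columns, a log2 difference of 1.5 and the family without genes described as WAK-like. No sequence is printed.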

Additional observations from a re-analysis of the deposited data

How the results depend on the processing

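No paired analysis was possible because the 2 libraries of a group are pooled in 1 column. The counts of genes called by limma moved by over 1.5 times only where columns were left out. Without the HHZ columns, 20 genes were called after 1 day (35 with all columns), 21 after 3 days (45), 4 between 1 day and 3 days (9) and 3 between H471 and P28 (12). Without the H471 columns the counts were 22, 23 and 5 for the drought contrasts and 4 between the parents (12). Without the 1-day columns, 2 genes were called between the parents and 2 between H471 and P28, and without the 3-day columns 4 and 5. These fits have 2 residual degrees of freedom. Over the fits that leave out 1 column, the counts ran from 22 to 36 after 1 day, from 26 to 43 after 3 days, from 6 to 14 between 1 day and 3 days, from 6 to 15 between the parents, from 0 to 1 between H471 and HHZ and from 7 to 14 between H471 and P28. The count of 7 between H471 and P28 was reached without the P28 1-day and without the H471 1-day column. By the size rule, the genotype counts depended on the value added before log2. With 0.1 in place of 1, P28 differed from HHZ at 31 genes after 1 day (16) and at 31 after 3 days (14), where the balance turned from 9 higher and 5 lower to 15 higher and 16 lower, and H471 from HHZ at 11 in control (7), 13 after 1 day (4) and 14 after 3 days (2). With a log2 difference of at least 1.5, P28 differed from HHZ at 10 genes after 1 day and 9 after 3 days. H471 differed from HHZ at 2 genes in control and 2 after 1 day. The added value acts on low FPKM by construction, and the reads behind a low value cannot be recovered from these columns.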

Other observations

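Beside the wall-associated kinase genes, the chromosome 4 segment holds other genes with nearly all their recorded RNA in 1 parent. Here too a gene without RNA and a gene whose reads do not align cannot be told apart. Taking segment genes with a control FPKM under 0.3 in one parent and at least 1 in the other, chosen after the values had been seen, 9 had their RNA in HHZ and 2 in P28. They come from the 14 tested wall-associated kinase genes and 52 other tested genes of the segment. The share of all genes under this rule was not taken. By a stricter rule, at 0 in one parent's control and at least 1 in the other's, 0.948% of all genes tested had their RNA in HHZ and 1.23% in P28. The 9 were the 8 listed wall-associated kinase genes and LOC_Os04g30180, described as an RNI-like superfamily protein, at 3.23, 4.52 and 2.17 in HHZ, 0.244, 0 and 0 in P28, and 2.44, 0.0246 and 0 in H471. The H471 control stood at 0.253 to 0.756 times the HHZ control over these 9 genes. After 1 day the ratio was 0.0164 or less at the 5 that reached an FPKM of 1 in HHZ, and after 3 days 0.00897 or less at 2.

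The 2 genes with RNA in P28 went the other way. LOC_Os04g30200, also described as RNI-like, stood at 0.0664 or less in HHZ, at 7.41, 5.47 and 6.98 in P28, and at 3.89, 3.73 and 6.08 in H471. LOC_Os04g31140 was listed at 0 in HHZ and stood at 6.21, 5.08 and 4.29 in P28, and at 2.51, 5.32 and 4.42 in H471. The H471 control was 0.404 and 0.525 times the P28 control, and the H471 drought columns were 0.681 to 1.05 times those of P28. In the H471 control, genes of both kinds thus lay between the parents, and in the H471 drought columns they lay near P28. All of these values rest on 1 pooled column each and no test was made.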
